A study of Saccharomyces cerevisiae with 12 samples.

Results

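The plasma membrane proton pump of budding yeast, its 2 small proteolipid partners and the Hsp30 family were followed as starved, non-dividing (quiescent) cells returned to growth. These are 7 of the 6120 genes in the expression table: PMA1 and PMA2, the proton-pumping ATPases; PMP1 and PMP2, the proteolipids; and HSP30, MRH1 and YRO2, the Hsp30 family. They were chosen by family, and their normalised read counts in all 4 groups were known when they were listed, so their differences between groups are given as a description and were not tested. All 7 were among the 5871 genes with a mean of at least 10 normalised read counts over the 12 libraries, the minimum for the fit.

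The cells were Saccharomyces cerevisiae strain pJD47, grown from single colonies in synthetic complete medium with 2% glucose at 30 °C. Quiescent cells had spent 7 days in water holding 10 mM deuterated (D3) acetate and no glucose. The 30 min and 240 min groups came from quiescent cultures that were washed and put into liquid medium for that time. The log-phase group was in logarithmic growth. The labels give neither the composition of the medium used for exit nor whether log-phase cultures were sampled before starvation or after regrowth. Each group had 3 biological replicates, which the labels do not trace to separate colonies, so the spread given is that between these samples. RNA was selected for poly(A) tails and read from 1 end in 75-base reads. A normalised read count is a gene's reads divided by a factor that puts the libraries on a common scale. It does not tell fewer cells that make an RNA from less RNA in each cell.

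Depth ran from 1195233 to 5220494 reads in quiescent libraries, 7943459 to 11866340 after 30 min, 11572190 to 12428294 after 240 min and 13480102 to 15100323 in log phase. In the shallowest library, quiescent replicate 1, a single read was worth 6.97 normalised counts. Replicate 1 stood apart in every group, and most in log phase, where the median gene lay 0.64 log2 units from the mean of replicates 2 and 3, which lay 0.21 from each other. Markers of starved cells bore on the log-phase label: the summed level of HSP12, HSP26, SPG1, SPG4 and SSA3 was 2882, 48966 and 28979 in log-phase replicates 1, 2 and 3, against 3005, 11324 and 10328 at 240 min. It was 44719 to 53176 in the 30 min libraries and 99731 to 117067 in the quiescent ones. HSP12 alone was at 38800 and 22735 in log-phase replicates 2 and 3. HSP26, SPG1 and SPG4 were also higher in those replicates than in any 240 min library. SSA3 was lower in log phase (582, 1491 and 1264) than in the same replicate number at 240 min (978, 3072 and 2896). All 5 markers were detected in every group. The summed level of 5 glucose-growth markers (HXT1, HXT3, CDC19, PDC1 and RPL3) was 136274 to 192702 in log phase and 136469 to 152328 at 240 min, against 23997 to 33800 at 30 min and 26542 to 39206 in quiescent cells. CDC19 was the largest part in log phase, and HXT1, HXT3 and CDC19 were above every quiescent library there. PDC1 in log phase (8706 to 12946) overlapped its quiescent range (6172 to 12452) and lay below every 240 min library (17682 to 24925). RPL3 was 25363, 21536 and 11632 in log phase, against 7267 to 11467 in quiescent cells and 28937 to 35611 at 240 min. Log-phase differences of the 7 genes are also given without log-phase replicate 1, which had the lowest starvation-marker sum of the log-phase libraries. That omission keeps replicates 2 and 3, whose sums were higher, so its values are not corrected ones.

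Pma1 uses ATP to push protons out of the cell, and the gradient it builds drives nutrient uptake and sets cytosolic pH. Glucose switches the enzyme on through phosphorylation of its tail, and starvation lowers its activity. Pma2 is a close relative with the same activity that contributes little in ordinary growth. Pmp1 and Pmp2 are very small membrane proteins that purify with Pma1 and regulate it. Hsp30 is a stress-induced membrane protein that restrains Pma1, and Mrh1 and Yro2 are its relatives in the plasma membrane, built like microbial rhodopsins.

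The pairs are similar enough that reads could in principle be shared between them, so the coding sequences were compared first, in the R64 (sacCer3) reference. PMA1 (YGL008C, chromosome VII, 479910 to 482666, minus strand) and PMA2 (YPL036W, chromosome XVI, 482843 to 485686, plus strand) were identical at 82.4% of 2757 aligned bases. Their longest shared run was 74 bases, 1 base less than a read. It is shown in the coding direction because it is where a read comes nearest to fitting both genes.
PMA1, VII:480349-480422, minus strand: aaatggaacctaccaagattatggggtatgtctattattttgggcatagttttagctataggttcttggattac

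PMP1 (YCR024C-A, chromosome III, 162945 to 163067, minus strand) and PMP2 (YEL017C-A, chromosome V, 122798 to 122929, minus strand) were the closest pair, identical at 91.9% of aligned bases, with a longest shared run of 40. Both coding sequences are shown whole, with the bases that differ between them in capitals. Beyond a 9-base insertion near the start of PMP2, the differences were 10 single bases spread along the gene.
PMP1, III:162945-163067, minus strand: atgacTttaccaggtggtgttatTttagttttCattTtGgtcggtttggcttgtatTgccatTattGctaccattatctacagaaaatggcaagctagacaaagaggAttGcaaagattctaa
PMP2, V:122798-122929, minus strand: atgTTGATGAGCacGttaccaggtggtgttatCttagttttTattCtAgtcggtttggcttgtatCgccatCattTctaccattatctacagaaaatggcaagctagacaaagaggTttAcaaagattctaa

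MRH1 (YDR033W, chromosome IV, 508147 to 509109, plus strand) and YRO2 (YBR054W, chromosome II, 343101 to 344135, plus strand) were identical at 76.1% of aligned bases. HSP30 (YCR021C, chromosome III, 156109 to 157107, minus strand) was more distant, at 63.0% to MRH1 and 64.0% to YRO2. In none of these 5 pairs was any 75-base window of one gene present in the other. With no mismatch allowed, a whole read inside a coding sequence therefore matched 1 gene of a pair. The mismatches that the authors' alignment allowed are not given in the sources used here, and with PMA1 far above PMA2, the PMA2 level is the more open to stray reads.

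PMA1 had the highest normalised read count of the 7 genes in every library. The count was 7071, 4558 and 4765 in quiescent cells, 11808, 19184 and 21027 after 30 min, 37787, 77158 and 69703 after 240 min, and 60454, 113549 and 118725 in log phase (replicates 1, 2 and 3). Quiescent, 30 min and 240 min libraries did not overlap, while log-phase replicate 1 lay inside the 240 min range. PMA1 averaged 0.261% of reads at 30 min against 0.0685% in quiescent cells, and 0.877% in log phase. The log2 difference was 1.65 ± 0.40 between 30 min and quiescent cells (estimate ± standard error of the fit over all genes), 1.80 ± 0.40 between 240 min and 30 min, and 0.67 ± 0.40 between log phase and 240 min, or 0.98 without log-phase replicate 1. The last difference was 0.53 and 0.49 without log-phase replicate 2 or 3, 0.35 without 240 min replicate 1 and 0.39 with libraries scaled to equal totals. Log-phase cells stood 4.12 ± 0.40 above quiescent cells on the log2 scale, which is 17.4-fold. Without log-phase replicate 1, 2 or 3 the log2 difference was 4.44, 3.98 and 3.95.

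The first step of PMA1 was not of one size across replicates. Its log2 difference between 30 min and quiescent cells was 0.74 in replicate 1, against 2.07 and 2.14 in replicates 2 and 3. At 240 min against 30 min the replicates gave 1.68, 2.01 and 1.73. Replicate 1 differed at the first step in both groups, with the highest PMA1 among quiescent libraries and the lowest at 30 min.

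**Figure D1:**
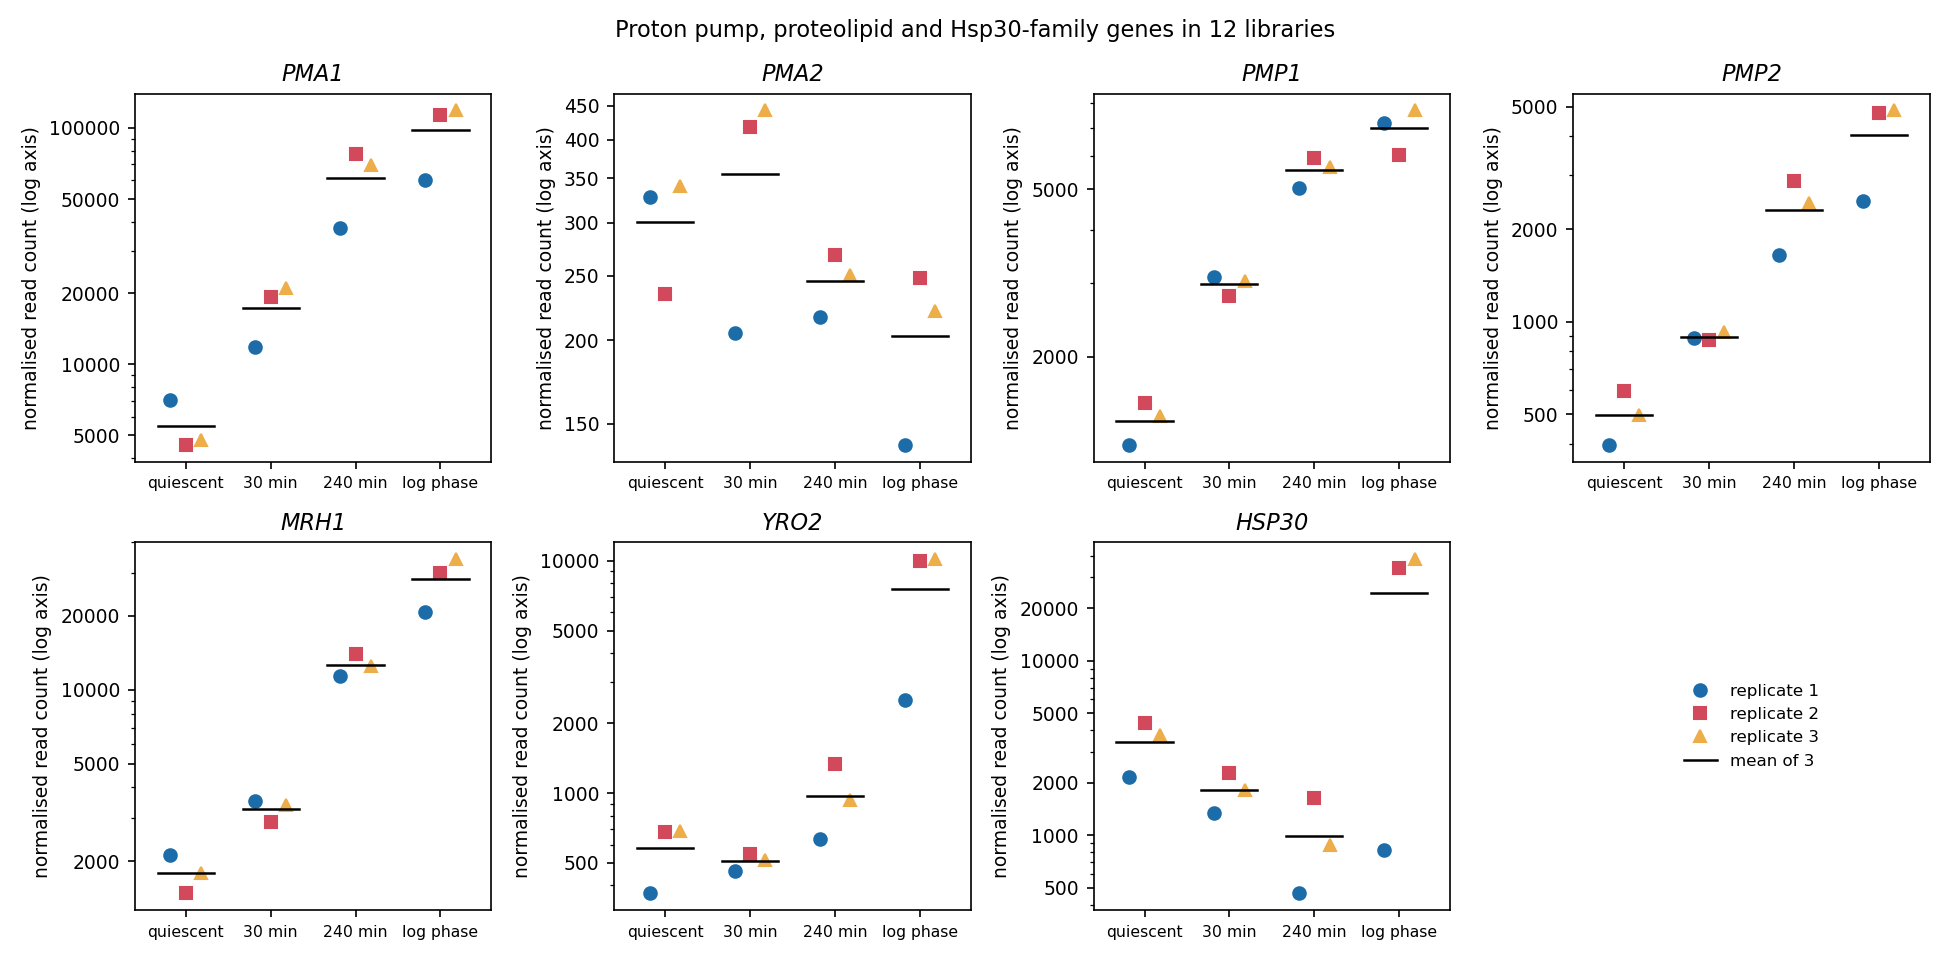
Normalised read count (log axis) of the 7 genes in each of the 12 libraries, by group in order of time, with symbols for replicate number and a bar at the mean of 3. PMA1, PMP1, PMP2 and MRH1 are higher in every 30 min, 240 min and log-phase library than in any quiescent one, PMA2 stays within 139 to 443, and HSP30 in log phase spans 825 to 38416.

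PMA2 followed a different course at a far lower level. Its normalised read count was 328, 235 and 340.5 in quiescent cells, 205, 418.5 and 443 after 30 min, 217, 268 and 251 after 240 min, and 139, 248 and 221 in log phase. Every pair of groups overlapped. Quiescent replicate 1, the shallowest library, holds 47 PMA2 reads. The log2 difference was 0.18 ± 0.31 at 30 min against quiescent cells, with replicate 1 at -0.67 and replicates 2 and 3 at 0.83 and 0.38, and it ran from -0.02 without 30 min replicate 3 to 0.53 without 30 min replicate 1, with 0.43 for equal totals. Log-phase cells stood at -0.59 ± 0.31 against quiescent cells and at -0.77 ± 0.31 against 30 min, or at -0.34 and -0.52 without log-phase replicate 1 and at -1.06 and -1.49 with equal totals. These 2 differences were -0.75 and -0.93 without log-phase replicate 2, and -0.67 and -0.85 without log-phase replicate 3.

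Per kilobase of coding sequence, which allows levels of different genes to be compared, PMA1 exceeded PMA2 in every library and the gap widened at each step. The ratio of PMA1 to PMA2 was 18.9 ± 4.03 in quiescent cells, 51.9 ± 6.50 after 30 min, 254 ± 64.7 after 240 min and 491 ± 55.3 in log phase (SD, n = 3 each). No neighbouring groups overlapped in this ratio: the highest quiescent library was at 22.3 and the lowest at 30 min was at 47.3, and the highest at 240 min was at 296 against 447.5 for the lowest in log phase. Among 5991 genes ranked per kilobase, PMA2 lay between ranks 5165 and 5557 throughout. PMA1 ranked 761 to 1085 in quiescent cells, 131 to 308 after 30 min, 92 to 152 after 240 min and 66 to 124 in log phase.

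The proteolipid PMP1 was already abundant in quiescent cells for its length, ranking 83 to 134 per kilobase, and ranked 15 to 18 at 30 min. Ranks of so short a gene depend on the coding length used here, since transcript ends are not in the reference and reads in the untranslated ends may be counted. Its normalised read count was 1234, 1553 and 1445 in quiescent cells, 3097, 2785.5 and 3032 after 30 min, 5042, 5930.2 and 5656 after 240 min, and 7169, 6042 and 7702 in log phase. No neighbouring groups overlapped, although the lowest log-phase library exceeded the highest 240 min library by little. The log2 difference was 1.08 ± 0.19 at 30 min against quiescent cells, 0.90 ± 0.19 at 240 min against 30 min, and 0.33 ± 0.19 in log phase against 240 min, or 0.30 without log-phase replicate 1. The last difference was 0.43 and 0.25 without log-phase replicate 2 or 3. With equal totals the log2 difference was 0.45 at 240 min against 30 min and 0.05 in log phase against 240 min.

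The annotation places a small gene, YCR024C-B, 79 bases downstream of PMP1 on the same strand. It averaged 4585 ± 1958 normalised read counts in quiescent cells, 4448 ± 469.6 after 30 min, 6363 ± 683 after 240 min and 7869 ± 1189 in log phase (SD, n = 3 each). Whether transcripts of PMP1 run into it, and so lose reads to it, was not tested.

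PMP2 lay below PMP1 in every library and differed more from quiescent cells by log phase. Its normalised read count was 397.5, 593 and 499 in quiescent cells, 882, 870.5 and 928 after 30 min, 1646, 2869.9 and 2427 after 240 min, and 2460.4, 4760.3 and 4866 in log phase. Quiescent, 30 min and 240 min libraries did not overlap, and quiescent replicate 1 holds 57 PMP2 reads. Log-phase replicate 1 lay within the 240 min range, and without it the log2 difference between log phase and 240 min was 1.09 rather than 0.77 ± 0.29, which equal totals put at 0.50. That difference was 0.62 and 0.60 without log-phase replicate 2 or 3. Log-phase cells stood 2.97 ± 0.29 above quiescent cells for PMP2, against 2.30 ± 0.19 for PMP1 (log2 differences), or 3.29 against 2.28 without log-phase replicate 1. Without log-phase replicate 2 the values were 2.82 against 2.40, and without log-phase replicate 3 they were 2.80 against 2.23.

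The ratio of PMP1 to PMP2 per kilobase was 3.08 ± 0.263 in quiescent cells, 3.57 ± 0.176 after 30 min, 2.67 ± 0.554 after 240 min and 2.06 ± 0.937 in log phase (SD, n = 3 each). Log-phase replicate 1 was at 3.13, in the quiescent range, while replicates 2 and 3 were at 1.36 and 1.70. The 30 min libraries, at 3.43 to 3.77, lay above all others.

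**Figure D2:**
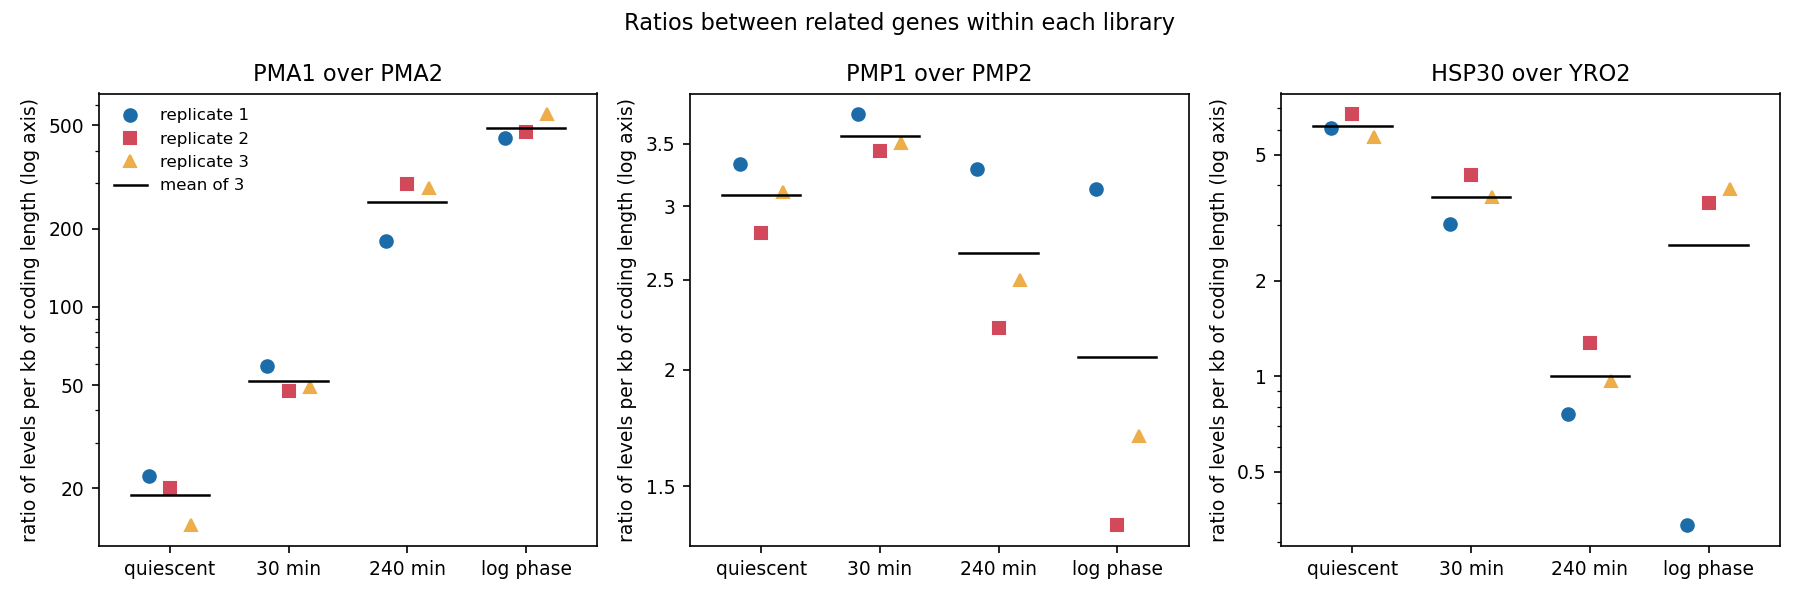
Ratio of levels per kilobase of coding length (log axis) within each library for PMA1 over PMA2, PMP1 over PMP2 and HSP30 over YRO2, by group in order of time, with a bar at the mean of 3. PMA1 over PMA2 is larger in each later group, from 14.4 in the lowest quiescent library to 553 in the highest log-phase library, and HSP30 over YRO2 in log phase runs from 0.340 to 3.90.

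In the Hsp30 family, the 3 genes took 3 different courses. MRH1, which is abundant in growing cells, had 2127, 1479.8 and 1786 normalised read counts in quiescent cells, 3528, 2902.5 and 3384 after 30 min, 11364, 14034 and 12539.5 after 240 min, and 20793, 29988 and 34200.0 in log phase. No neighbouring groups overlapped. Its log2 difference was 0.87 ± 0.24 at 30 min against quiescent cells, 1.95 ± 0.24 at 240 min against 30 min and 1.14 ± 0.24 in log phase against 240 min. The last was 1.35, 1.08 and 0.99 without log-phase replicate 1, 2 or 3. Log-phase cells stood 15.6-fold above quiescent cells, close to PMA1 in size. That is 3.96 ± 0.24 on the log2 scale, or 4.17, 3.91 and 3.81 without log-phase replicate 1, 2 or 3. The replicates gave 3.29, 4.34 and 4.26 on the log2 scale for that difference, replicate 1 again the smallest.

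YRO2, the closest relative of MRH1, had 369.6, 676.5 and 688 normalised read counts in quiescent cells, 463, 547 and 514 after 30 min, 634, 1336 and 934 after 240 min, and 2517, 9958 and 10204 in log phase. Quiescent libraries enclosed the 30 min libraries, and quiescent replicate 1 holds 53 YRO2 reads. The sign of its difference at 30 min against quiescent cells (-0.13 ± 0.48, log2) was not fixed: it was 0.12 with libraries scaled to equal totals, and 0.01 and 0.02 without quiescent replicate 2 or 3. All log-phase libraries lay above all 240 min libraries, with a log2 difference of 2.78 ± 0.48, or 3.45 without log-phase replicate 1. Within replicate numbers the difference was 1.99, 2.90 and 3.45.

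HSP30 was lower at each step of exit on the group means. Its normalised read count was 2162, 4384 and 3768 in quiescent cells, 1346, 2274 and 1824 at 30 min, and 464, 1646 and 874 at 240 min. Neighbouring groups overlapped, but the 240 min libraries all lay below the quiescent libraries, with a log2 difference of -1.91 ± 1.11. Within replicate numbers that difference was -2.22, -1.41 and -2.11, where the sign follows from the lack of overlap. The standard error is the same in every HSP30 comparison, because the fit shares 1 estimate of spread over all groups, log phase included. The SD of log2 levels was 0.54, 0.38 and 0.91 in quiescent, 30 min and 240 min libraries, against 3.15 in log phase.

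In log phase HSP30 was at 825, 33848 and 38416, so that the highest library exceeded the lowest 46.5-fold, the widest spread of any of the 7 genes in any group. Replicate 1 lay inside the 240 min range and below every quiescent library, and replicates 2 and 3 lay above every library of the other groups. The log2 difference between log phase and 240 min was 3.55 ± 1.11 with all libraries and 5.36 without log-phase replicate 1. Between log phase and quiescent cells it was 1.64 ± 1.11, made of -1.39, 2.95 and 3.35 in replicates 1, 2 and 3, and it was 3.45 without log-phase replicate 1, 0.77 and 0.68 without replicate 2 or 3, and 2.82 in edgeR and in DESeq2. The summed starvation markers split the log-phase libraries in the same way, with 2882 in replicate 1 and 48966 and 28979 in replicates 2 and 3, and HSP12, a small membrane-protecting stress protein, was at 1297, 38800 and 22735. Their part in the HSP30 and YRO2 values was not tested.

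**Figure D3:**
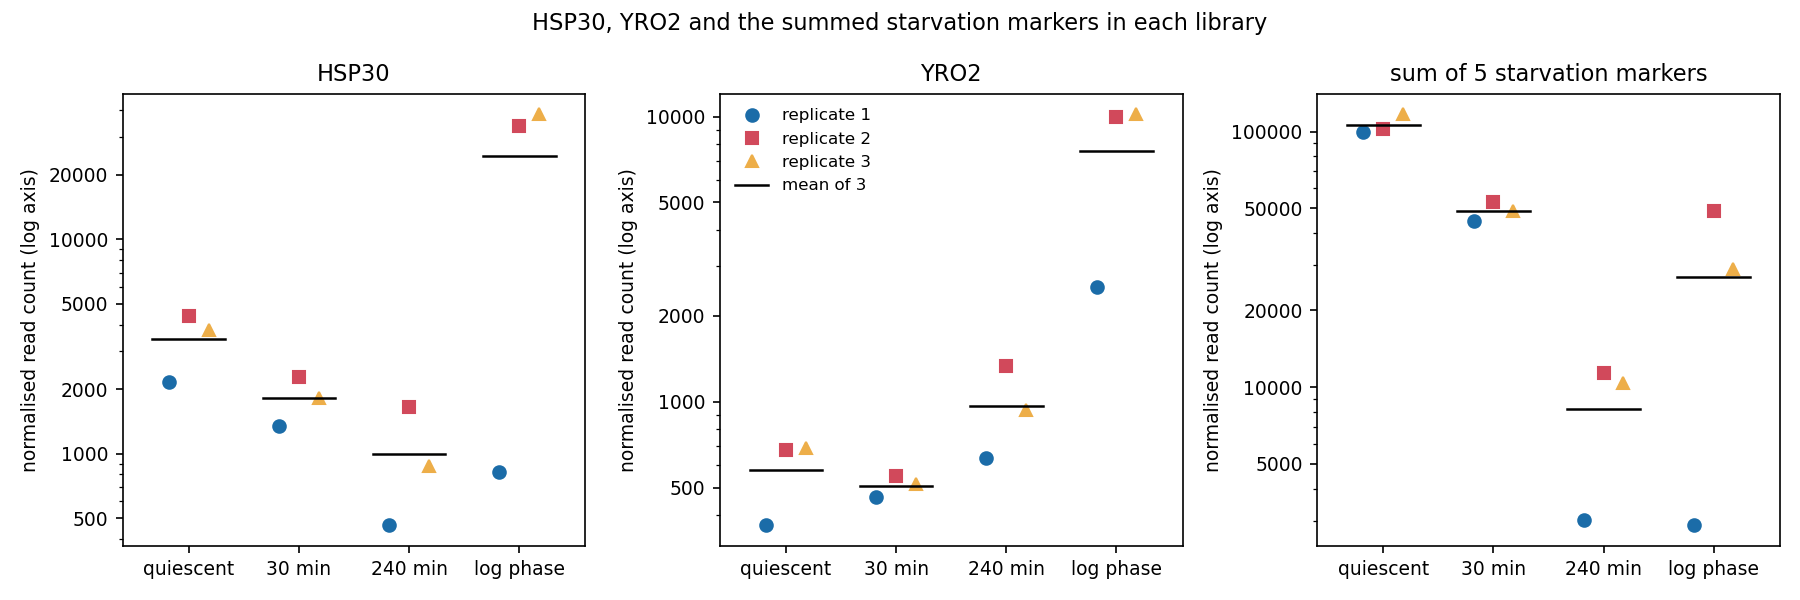
Normalised read count (log axis) of HSP30, of YRO2 and of 5 starvation markers summed, in each library, by group in order of time, with a bar at the mean of 3. In log phase, replicate 1 is the low library in all 3 panels (825, 2517 and 2882), and replicates 2 and 3 are at least 9958 in each. HSP12 alone gives 38800 and 22735 of the summed markers in log-phase replicates 2 and 3.

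Compared per kilobase, HSP30 stood above YRO2 in quiescent cells (6.15 ± 0.525) and at 30 min (3.66 ± 0.646), and level with it at 240 min (1.00 ± 0.260; SD, n = 3 each). In log phase the ratio was 0.340, 3.52 and 3.90 in the 3 libraries. Against the pump, HSP30 per kilobase was 0.844 to 2.65 times PMA1 in quiescent cells, 0.239 to 0.327 times at 30 min and 0.0339 to 0.0589 times at 240 min. In log phase it was 0.0377, 0.823 and 0.893 times PMA1. The order of these 2 levels was thus HSP30 first in quiescent replicates 2 and 3, and PMA1 first in quiescent replicate 1 and in every later library.

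Set side by side, the 7 genes gave these counts under a rule of a difference of at least 2-fold with no overlap between groups. At 30 min against quiescent cells PMA1 and PMP1 were past it on the higher side, as were 14.0% of all tested genes. At 240 min against 30 min the genes past it were PMA1, PMP2 and MRH1, against 8.28% of tested genes. In log phase against 240 min they were MRH1 and YRO2, against 2.96% of tested genes. None of the 7 was past it on the lower side at any of these steps, where 16.2%, 10.7% and 3.34% of tested genes were. Between 240 min and quiescent cells HSP30 was the 1 gene past it on the lower side (22.8% of tested genes), and PMA1, PMP1, PMP2 and MRH1 were past it on the higher side (21.0%). Between log phase and quiescent cells the same 4 and YRO2 were past it on the higher side (19.7%) and none on the lower side (20.3%). Leaving out log-phase replicate 1 gave 4 genes past the rule in log phase against 240 min, and leaving out log-phase replicate 3 gave 1. On the lower side 1 gene was past it at 30 min without quiescent replicate 1 or 30 min replicate 2, and 1 at 240 min against 30 min without 30 min replicate 1 or 240 min replicate 2. With equal totals 4 genes were past it on the higher side at 30 min, and 1 in log phase against 240 min. On the lower side equal totals gave 1 at 240 min against 30 min and 1 in log phase against quiescent cells. The shares of all tested genes were not worked out under these alternatives, so the alternative counts have no background beside them. Since the genes were listed with these values known, nothing is read from the counts.

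**Figure D4:**
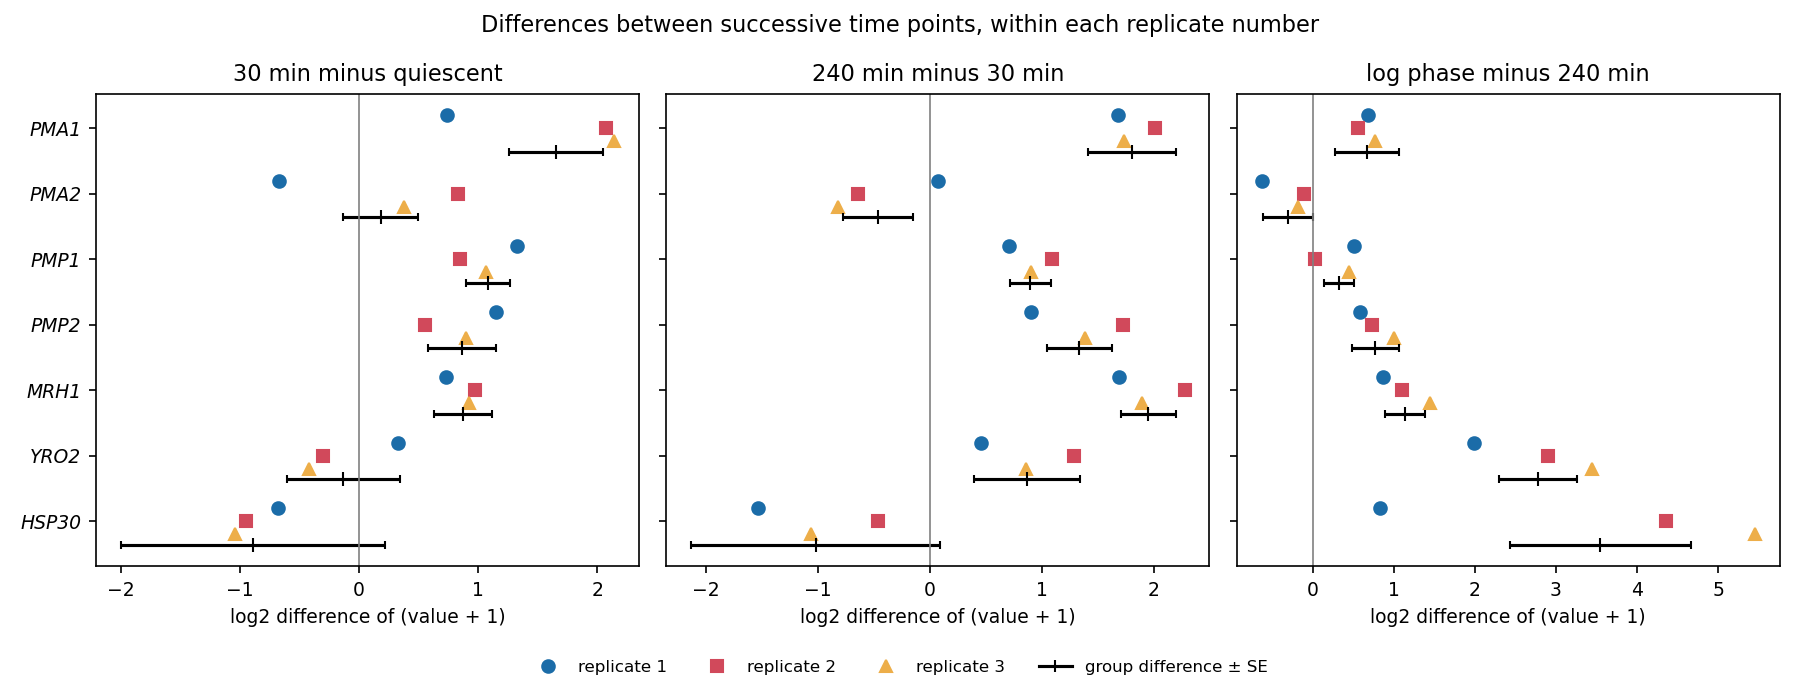
Log2 difference between successive groups for each of the 7 genes, as coloured symbols for each replicate number and a black bar for the group difference with its standard error, in 3 panels in order of time. PMA1 differs at 30 min by 0.74 in replicate 1 and by 2.07 and 2.14 in replicates 2 and 3, and HSP30 in log phase against 240 min by 0.83, 4.36 and 5.46.

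The genes whose log2 levels were most like each member over the 12 libraries are given as a description, since the 12 points share 4 groups and the same libraries. Among 5630 genes with a mean of at least 50 normalised read counts, PMA1 was most like VTA1 (Pearson r = 0.99), CAF20 and THS1, and MRH1 was most like PSA1 (0.99), PGK1 and PMT2. For PMP1 they were KES1 (0.99), YGR017W and MRPS9, and for PMP2 PER1 (0.99), NTF2 and VPS74. For YRO2 they were QRI5 (0.98), YPR170W-B and COX17, for HSP30 SYS1 (0.97), MDM35 and EMP46, and for PMA2 YDR170W-A (0.88), SAM3 and GPR1. With the mean of each replicate number taken out, 0 of the 3 nearest genes were shared for PMA1 and for PMA2, and 1 or 2 of 3 for the others. None of the 7 genes was among the 3 nearest of another, although several of them took a like course. PMA1, PMP1, PMP2 and MRH1 gave r of 0.947 to 0.972 with each other. YRO2 gave 0.694 to 0.850 with these genes and 0.726 with HSP30. Against PMA1, PMP1, PMP2 and MRH1, HSP30 gave 0.0924 to 0.351 and PMA2 gave -0.544 to -0.366.

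The region before each start codon was searched for binding motifs of factors known to act at these genes or in stress, over 1000 bases and on both strands. The Rap1 motif ACCCNNACA was present in 9.67% of 5996 such regions, and 0.734% held at least 2 matches. Rap1 is a general activator of highly expressed genes. PMA1 held 2 matches, 892 to 884 and 795 to 787 bases before its start codon, and PMA2 held 1, 567 to 559 bases before. They are shown with the match in capitals, read towards the gene.
PMA1, VII:483539-483568, minus strand: tgctgggatcACCCATACAtcactctgttt
PMA1, VII:483442-483471, minus strand: gcagaaataaACCCATACAcgagacgtaga
PMA2, XVI:482266-482295, plus strand: atcatcaaggACCCAAACAttcacgactcc

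The stress response element AGGGG, bound by Msn2 and Msn4, was present in 55.0% of regions. There were 4 matches before PMA2 and 1 each before PMA1, PMP1, PMP2 and YRO2. HSP30 and MRH1 had none in this window. The heat shock element bound by Hsf1, searched as GAA, TTC and GAA with NN between each, was present in 2.65% of regions and in none of the 7. A match is a run of letters and does not show that a factor binds.

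Genes that work with or beside the pump were then tested, in 6 lists of 66 genes in all, of which 65 passed the minimum level. The lists were chosen with earlier results of these data known, and the adjusted p values do not allow for that choice. The calls are therefore not independent support. They were tested in the same fit with limma over all 5871 genes, with Benjamini-Hochberg adjustment and an adjusted p below 0.05 as the call. At 30 min against quiescent cells 8 of the 65 were called higher and 20 lower, against 20.6% and 23.7% of all tested genes. At 240 min against 30 min 18 were called higher and 4 lower (13.3% and 14.0% of all tested genes). In log phase against 240 min 5 were called higher and 1 lower (3.27% and 4.09%), and 10 were called higher when the replicate number was a block in the fit. That block gave 10 higher and 28 lower at the first step (1550 and 1799 of all tested genes). At the second step it gave 27 higher and 6 lower (1155 and 1159 of all tested genes). With libraries scaled to equal totals 13 of the 65 were lower at the first step, 5 higher and 14 lower at the second, and 4 lower at the last. The counts also moved with single libraries. At the first step 4 were called higher without quiescent replicate 1 or 30 min replicate 3, and 5 without 30 min replicate 2. At the second step 10 were higher and 1 lower without 30 min replicate 2, 11 higher and 2 lower without 30 min replicate 3, and 2 lower without 240 min replicate 2. At the last step 19 were higher and 5 lower without log-phase replicate 1, against 1 to 3 higher without any 1 of 240 min replicates 2 and 3 and log-phase replicates 2 and 3, and none lower without 240 min replicate 2 or 3 or 2 lower without log-phase replicate 2. Calls over all tested genes were not counted with 1 library left out, so nothing particular to these lists is read from such counts, here or below.

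Of the 13 genes for kinases, a phosphatase and transport factors that act on Pma1, 4 were higher and 3 lower at 30 min than in quiescent cells, with a median log2 difference of 0.06 beside -0.07 over all tested genes. The kinases went both ways. PTK2, which activates Pma1, and its relative PTK1 fell to 474 ± 44.8 and 359 ± 50.5 normalised read counts at 30 min, against 1170 ± 72.6 and 954 ± 170 in quiescent cells (SD, n = 3 each; adjusted p = 0.00098 and 0.00043, limma). HRK1, another kinase that activates Pma1, rose to 1147 ± 48.2 at 30 min, against 564 ± 73.1 in quiescent cells (adjusted p = 0.0020, limma), and the casein kinase YCK2 rose by 1.18 ± 0.27 on the log2 scale (adjusted p = 0.0042, limma). These 4 calls held in every fit that left out 1 library.

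At 240 min against 30 min, 3 of the 13 were higher and 1 lower, or 7 higher with the replicate number as a block, and the median was 0.55 beside -0.01 over all tested genes. LST1 (SFB3 in the table), which loads Pma1 into transport vesicles leaving the endoplasmic reticulum, rose to 1886 ± 16.6 at 240 min, against 919 ± 81.8 at 30 min (adjusted p = 0.0014, limma). EXP1 (YDL121C in the table), a cargo adaptor for Pma1, rose by 1.09 ± 0.31 and SOP4, an endoplasmic reticulum protein in Pma1 quality control, by 0.93 ± 0.26 on the log2 scale (adjusted p = 0.021 for both, limma). PTK1 fell further, by 0.88 ± 0.22 (adjusted p = 0.012, limma). The EXP1 call was lost without 30 min replicate 1 or 2 or 240 min replicate 2 or 3 (adjusted p up to 0.081), the SOP4 call without 30 min replicate 2 or 3 or 240 min replicate 1 (up to 0.075), and the PTK1 call without replicate 2 of either group (up to 0.058). With equal totals EXP1 stood at 0.64 and SOP4 at 0.48, neither called (adjusted p = 0.0864 and 0.218, limma), and 1 of the 13 was called higher and 2 lower. In log phase against 240 min none was called higher by limma, edgeR or DESeq2, nor at an unadjusted p below 0.05 in limma, and AST1, which helps deliver Pma1 to the cell surface, fell by 1.16 ± 0.21 (adjusted p = 0.0095, limma), a call lost without 240 min replicate 2 or 3 (0.056 and 0.065). AST1 stood at -1.23 without log-phase replicate 1, a fit in which 3 of the 13 were called higher and 2 lower. With equal totals 3 were called lower at that step.

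The vacuolar proton pump, the other main proton-pumping ATPase of the cell, moved at the second step. At 240 min 10 of its 15 subunit genes were higher than at 30 min, beside 13.3% of all tested genes. The replicate block called 13 of the 15 higher, and the median log2 difference was 1.01. None was lower in limma, also at an unadjusted p below 0.05, or in edgeR or DESeq2. VMA6 rose to 5701 ± 1272 at 240 min, against 2047 ± 333 at 30 min (adjusted p = 0.0011), and the catalytic subunit gene VMA1 to 7701 ± 188, against 3199 ± 478 (adjusted p = 0.0013, limma, SD, n = 3 each). VMA2 and VMA13 rose by 1.35 ± 0.43 and 1.17 ± 0.39 on the log2 scale (adjusted p = 0.035 and 0.045, limma). The VMA2 call was lost without 30 min replicate 2 or 3 or 240 min replicate 1 (0.114 to 0.132), and the VMA13 call without any 1 library but 30 min replicate 1 (0.057 to 0.154). VMA2 and VMA13 were not called with no filter on low values (0.0549 and 0.065) or with equal totals (0.90 and 0.72 on the log2 scale, adjusted p = 0.137 and 0.181). The count of 10 was 7 to 9 with 1 library left out and 3 with libraries scaled to equal totals. At 30 min against quiescent cells VMA7 (0.80 ± 0.26) and VMA3 (0.70 ± 0.26) were called higher and VMA1 (-0.59 ± 0.22) lower (adjusted p = 0.027, 0.041 and 0.047, limma), or 4 lower with the replicate block. The VMA3 and VMA1 calls were lost without any 1 of the 6 libraries, and the VMA7 call without quiescent replicate 1 or 30 min replicate 2 or 3 (0.062 to 0.152 over the 3 genes). VMA1 was also not called by edgeR (adjusted p = 0.0552) or with equal totals (-0.33, adjusted p = 0.201). In log phase against 240 min limma, edgeR and DESeq2 called none of the 15, although 4 were higher at an unadjusted p below 0.05 in limma and 4 were called higher with the replicate block. Without log-phase replicate 1, limma called 3 higher and 2 lower.

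Of 9 tested genes for potassium and sodium transporters of the plasma membrane and of internal membranes, 5 were lower at 30 min than in quiescent cells, with a median of -0.86 beside -0.07 over all tested genes. None of the 9 was higher in limma, also at an unadjusted p below 0.05, or in edgeR or DESeq2. Of all tested genes 23.7% were called lower and 20.6% higher at that step. TRK2, a potassium importer, fell to 687 ± 124 normalised read counts at 30 min, against 2627 ± 831 in quiescent cells (adjusted p = 0.00037, limma, SD, n = 3 each). The vacuolar cation exchanger VNX1 (-1.57 ± 0.24), the outward potassium channel TOK1 (-1.43 ± 0.25) and the Golgi potassium exchanger KHA1 (-1.15 ± 0.23) fell as well (log2 differences, adjusted p = 0.00034, 0.00084 and 0.0018, limma). At 240 min ENA1, the sodium-exporting ATPase, was the 1 gene called, lower by -1.30 ± 0.37 than at 30 min (adjusted p = 0.021, limma). That call was lost without 30 min replicate 2 or 3 or 240 min replicate 1 (up to 0.085), and the paralogs ENA2 and ENA5 may share its reads. With the replicate block 2 genes were called lower at that step, and 4 with equal totals. Limma, edgeR and DESeq2 called none of the 9 in log phase against 240 min, where 1 was lower at an unadjusted p below 0.05 in limma. With equal totals 1 was called lower at that step. ENA2 was below the minimum level.

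Eisosomes are furrows of the plasma membrane that exclude Pma1. Of 12 genes for them and for the membrane compartment above them, 6 were lower and 1 higher at 30 min than in quiescent cells. Of all tested genes 23.7% were called lower and 20.6% higher at that step, while the median of the 12 was -0.94. With the replicate block 8 were lower and 2 higher, and with equal totals 3 were lower and 2 higher. The core eisosome genes LSP1 and PIL1 fell to 2347 ± 229 and 1316 ± 30.06 normalised read counts at 30 min, against 9389 ± 2340.0 and 3652 ± 1090 in quiescent cells (adjusted p = 0.00061 and 0.00095, limma, SD, n = 3 each). SUR7, which sits in the same furrows, rose by 1.24 ± 0.21 on the log2 scale (adjusted p = 0.00072, limma), while its relative YNL194C fell by 2.28 ± 0.78 (adjusted p = 0.031, limma), a call lost without any 1 of the 6 libraries (0.061 to 0.089) and with no filter on low values (0.0582). PIL1 was higher again at 240 min than at 30 min, by 1.32 ± 0.26 (adjusted p = 0.0029, limma), and in log phase than at 240 min, by 1.12 ± 0.26 (adjusted p = 0.028, limma), or 1.19 without log-phase replicate 1. The last call was lost without 240 min replicate 2 or 3 or log-phase replicate 2 or 3 (0.080 to 0.145). In log phase 1 of the 12 was called higher, against 7 without log-phase replicate 1. The share of all tested genes called without that library was not worked out.

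Targets of Haa1, the weak acid response factor that also controls YRO2, moved in both directions. At 30 min against quiescent cells 2 of 9 were higher, HRK1 and the inositol monophosphatase gene INM1 (1.78 ± 0.29, adjusted p = 0.00048), and 3 were lower, MSC1 (-2.28 ± 0.52, adjusted p = 0.0039), the polyamine exporter gene TPO3 (-1.57 ± 0.23, adjusted p = 0.00026) and the stress-induced GRE1 (-1.43 ± 0.41, adjusted p = 0.013, all limma). The GRE1 call was lost without quiescent replicate 1 (adjusted p = 0.060). At 240 min against 30 min YGP1 (1.15 ± 0.31) and TPO3 (0.70 ± 0.23) were higher, and GRE1 (-2.17 ± 0.41) and SPI1 (-1.86 ± 0.56) lower (adjusted p = 0.018, 0.042, 0.0023 and 0.027, limma). Of these, the TPO3 call was lost without any 1 library, the SPI1 call without any 1 but 240 min replicate 1, and the YGP1 call without 30 min replicate 2 or 3 or 240 min replicate 1 (0.0502 to 0.119 over the 3 genes). With equal totals TPO3 stood at 0.25 and YGP1 at 0.70, neither called (adjusted p = 0.391 and 0.0911, limma), so that none of the 9 was higher and 4 were lower.

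In log phase against 240 min 3 Haa1 targets were higher. YGP1, a secreted cell wall glycoprotein, rose to 7168 ± 831 normalised read counts in log phase, against 852 ± 279 at 240 min (adjusted p = 0.00046, limma, SD, n = 3 each), and its call held in every fit that left out 1 library. SPI1, a cell wall protein, rose by 3.15 ± 0.56 and MSC1 by 2.12 ± 0.52 on the log2 scale (adjusted p = 0.0091 and 0.033, limma). SPI1 lost its call without 240 min replicate 3 (0.059), and MSC1, whose groups overlapped, lost it without 240 min replicate 2 or 3 or log-phase replicate 2 or 3 (0.131 to 0.146) and with no filter on low values (0.0558). Without log-phase replicate 1 the differences were 3.21 for YGP1, 4.01 for SPI1 and 2.87 for MSC1. The summed starvation markers were at 2882, 48966 and 28979 in log phase against 3005, 11324 and 10328 at 240 min. Among them HSP12 alone was at 38800 and 22735 in log-phase replicates 2 and 3, and SSA3 was lower in log phase. The part of the markers in these differences was not tested.

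Of 8 genes for transcription factors that act at the pump or in stress, HSF1 fell to 1280.3 ± 243 normalised read counts at 30 min, against 2491 ± 508 in quiescent cells (adjusted p = 0.0049, limma, SD, n = 3 each). GCR2 was also called lower (-0.54 ± 0.19, adjusted p = 0.040, limma), a call lost without any 1 of the 6 libraries but quiescent replicate 3 (0.052 to 0.134) and with equal totals (-0.28, adjusted p = 0.244). GCR1, which activates PMA1 and glycolytic genes together with Rap1, rose to 1624 ± 56.4 at 240 min, against 872 ± 69.4 at 30 min (adjusted p = 0.0073, limma). RAP1 rose by 0.71 ± 0.21 on the log2 scale (adjusted p = 0.025, limma), a call lost without any 1 library but 30 min replicate 1 (0.054 to 0.106). Neither GCR1 nor RAP1 was called with libraries scaled to equal totals (adjusted p = 0.144 and 0.378). MSN4 rose by 2.34 ± 0.47 in log phase against 240 min (adjusted p = 0.016, limma), a call lost without 240 min replicate 2 or 3 or log-phase replicate 3 (0.069 to 0.091), and stood at 2.33 without log-phase replicate 1, while MSN2 stood at 0.07.

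**Figure D5:**
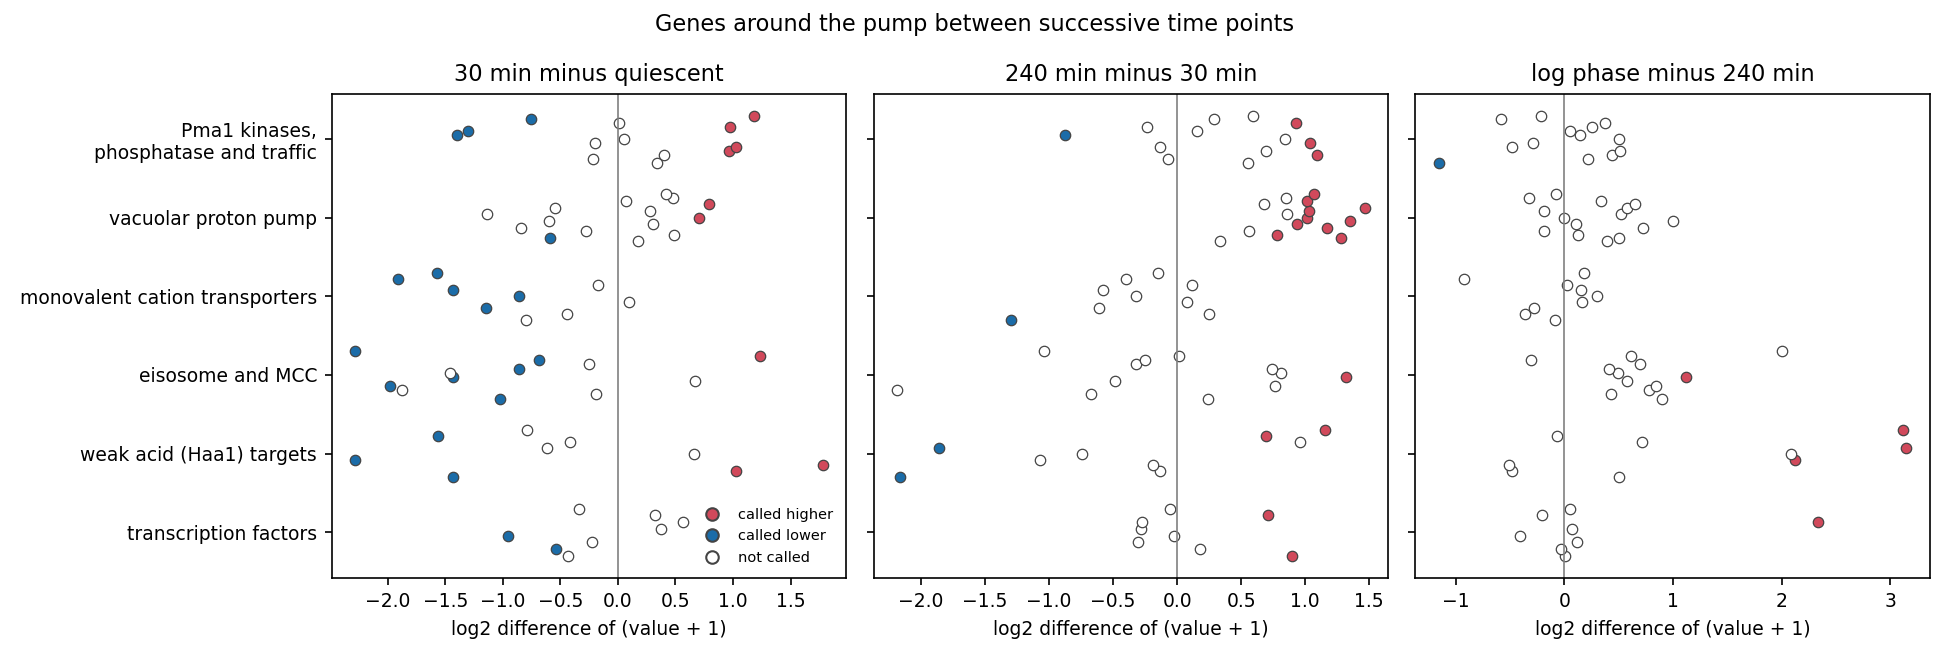
Log2 difference between successive groups for the 65 tested genes of 6 lists, 1 point per gene, filled red where called higher, blue where called lower and white where not called, in 3 panels in order of time (HRK1 appears in 2 lists). In the middle panel 10 of the 15 vacuolar pump genes are called higher, beside 13.3% of all tested genes. In the left panel 5 of 9 cation transporters and 6 of 12 eisosome genes are called lower, beside 23.7% of all tested genes. With equal totals the vacuolar count is 3 (328 of all tested genes called higher). The transporter and eisosome counts are then 4 and 3 (978 of all tested genes called lower).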

How the data were processed

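The values deposited by the authors are normalised read counts, a non-negative signal for each gene in each library. The submitters' processing notes name the sacCer3 build and the tools STAR 2.5.2a, HTSeq 0.6.1, bedtools, DESeq and DESeq2, without a role for any. The strand setting, spike-in use and alignment limits are not given in the sources used here. Whole reads were recovered from the deposited values: 100% of values were whole multiples of 1 read within a tolerance of 1e-06. These reads gave the depths and, as alternatives, edgeR 4.0.16 and DESeq2 1.42.0 tests.

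The 7 members and the 6 related lists were chosen with earlier results of these data known. Differences were fitted to log2(value + 1), which understates changes of low genes, with limma 3.58.1 (R 4.3.3, intensity trend, all 12 libraries, 4 groups, no covariate, 8 residual degrees of freedom). The fit covered 5871 genes with a mean of at least 10, two-sided, with Benjamini-Hochberg adjustment over all of them. The fit was also run on simulated counts with the same spread setting for all genes and groups and no shared replicate effect. That run does not show how the fit performs on these libraries. Of each related list, up to 4 called genes with the largest difference at each successive step are named, and for each member the 3 most similar genes.

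Libraries with the same replicate number deviated together from their group means (r = 0.134 to 0.582 in all 18 pairs). Replicate 1 against 2 or 3 gave -0.604 to -0.197, and replicate 2 against 3 gave 0.210 to 0.553. The labels do not say what the numbers share. A fit with the number as a block was an alternative, as were other pseudocounts, filters and scalings, and leaving out each library or replicate 1 of every group. No 2 libraries were duplicates: the closest pair of a group differed by a chi-square of 3.75 per degree of freedom.

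Gene names, coordinates and sequences come from the R64 reference (sacCer3). Values per kilobase use coding length. Protein sequences were not used here. Reads carry no molecular identifiers, so depth speaks to counting error only.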

Additional observations from a re-analysis of the deposited data

How the results depend on the processing

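Among the 7 genes, all log2 differences kept their sign under every alternative except PMA2 (95 of 96 values) and YRO2 (93 of 96). The filters and the replicate block cannot change these differences, and the pseudocounts barely moved them, so part of that tally was fixed in advance. The tally also leaves out spread between replicates. HSP30 in log phase against quiescent cells differed by -1.39, 2.95 and 3.35 in replicates 1, 2 and 3. With replicates 2 and 3 of every group only, PMA1 differed by 2.11 at 30 min against quiescent cells. The count of the 7 genes at least 2-fold higher without overlap at 30 min was 4 with libraries scaled to equal totals and 1 with replicates 2 and 3 only, against 2 in the fit reported. Leaving out single libraries gave 0 to 1 on the lower side at 30 min and at 240 min against 30 min, and 1 to 4 on the higher side in log phase against 240 min. Equal totals gave 1 for each of the last 2. The share of all tested genes past the rule was not worked out under these alternatives.

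Equal totals moved the median of all genes to 0.18, -0.46 and -0.28 at the 3 successive steps, and gave 1670 higher and 978 lower calls, 328 and 1941, and 112 and 693, against 1211 and 1394, 779 and 823, and 192 and 240. Among the related genes they left 13 lower at the first step, 5 higher and 14 lower at the second, and 4 lower at the last. Replicates 2 and 3 only called 13 higher and 36 lower, 28 and 17, and 34 and 8. Leaving out single libraries gave 4 to 8 higher at the first step, 10 to 15 higher and 1 to 3 lower at the second, and 1 to 19 higher and 0 to 5 lower at the last. Calls over all genes were not counted in the fits with libraries left out.

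The replicate block called 10 related genes higher in log phase against 240 min, and DESeq2 called 9. Over all genes at that step the block called 544 higher and 522 lower, and DESeq2 504 and 421. The block lost none of the calls of named genes. The cause of these changes was not tested. Depth limits PMA2, YRO2 and PMP2 most, with 47, 53 and 57 reads in quiescent replicate 1. The 3 libraries per group limit every comparison.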
